A study of Mus musculus with 6 samples.

Results

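The genes of 3 families of matrix-remodelling proteins were followed in cultured mouse bone marrow cells: the matrix metalloproteinases (Mmp genes), their tissue inhibitors (Timp genes) and the ADAMTS proteases, which carry thrombospondin repeats. Members were taken by gene symbol. This gave 46 genes of the 39017 in the count table, of which 23 were Mmp, 4 Timp and 19 Adamts genes. The labels call the cells macrophages: they were the adherent cells grown from the marrow of wild-type BALB/c mice, an inbred strain. RNA sequencing was done on 3 libraries from young mice (3 weeks of age) and 3 from old mice (more than 78 weeks), each made from 10000 cells. According to the labels, bones of the limbs were crushed, the cells that did not attach were removed, and the adherent ones were expanded in culture and described as positive for F4/80 and CD169. The labels do not state if each library had its own animal, and p-values here measure the spread between these libraries, which may be technical.

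Matrix metalloproteinases are zinc-dependent enzymes that cut collagens, elastin and other proteins outside the cell. Most are made as inactive precursors, and TIMPs block the active enzymes by filling their active site. ADAMTS enzymes cut proteoglycans such as aggrecan and versican, or trim procollagens before fibrils form. In bone and marrow these proteases are known for their work in bone remodelling, growth plate cartilage and the passage of leukocytes through matrix.

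Total counts ranged from 34391206 to 43367734 per library. Values below are CPM, counts scaled to a common library size with TMM factors, listed for replicates 1, 2 and 3 of an age in that order or given as mean ± SD (n = 3 for each age). Log2 fold changes are old minus young from edgeR's quasi-likelihood fit, with p-values adjusted by Benjamini-Hochberg over all 15567 tested genes and called at 0.05. The labelled cell type was checked with 12 macrophage markers. All 12 were detected, and Adgre1, which encodes F4/80, was at 473 ± 77.5 CPM in young libraries and at 226 ± 25.3 CPM in old ones. The summed macrophage markers lay between 3132 and 3453 CPM in young libraries and between 1709 and 1965 CPM in old ones. Markers of stromal cells and fibroblasts, led by the collagen genes Col1a1 and Col1a2, summed to between 30960.3 and 68917 CPM in young libraries and between 23571 and 29691 CPM in old ones, so a level given below is that of a mixed culture. Of these 11 markers 2 rose, Pdgfra (log2 fold change 1.23) and Cxcl12 (1.36), and 3 fell, Lum, Lepr and Postn, with a median log2 fold change of -0.68. Their part in the members' differences between ages was not tested. Fewer cells of a type and less RNA per cell cannot be told apart in such bulk libraries. Young replicate 3 stood apart: Col1a1 and Col1a2 took 5.44% of its counts, while no other young library exceeded 3.00% and no old library 2.25%.

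Both tested collagenases, macrophage elastase and Adamts5 were higher in old libraries, while 2 of 6 membrane-type metalloproteinases and Adamts4 were lower. Of the 46 members 34 had enough counts to be tested, and 7 passed the threshold, 20.6% of those tested against 10.5% of all genes tested. The 4 that rose were Mmp12, Mmp8, Mmp13 and Adamts5 (11.8% of tested members, 5.84% of all tested genes). The 3 that fell were Mmp15, Adamts4 and Mmp16 (8.82% of tested members, 4.7% of all tested genes). The remaining 27 did not pass. The median log2 fold change of tested members was -0.04, beside -0.01 over all genes tested. The size of the differences regardless of direction had a median of 0.49 on the log2 scale in the members and 0.20 over all genes tested. In 14 tested members (41.2%) young and old CPM values were fully apart, 9 higher and 5 lower in old libraries, where all tested genes gave 30.2%. On leaving out young replicate 3, 8 members were higher and 3 lower, where 16.5% of all genes tested were called. DESeq2, which gave an adjusted p for 37 members, called 7 higher and 6 lower, where 13.3% of all genes with such a p were called.

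**Figure D1:**
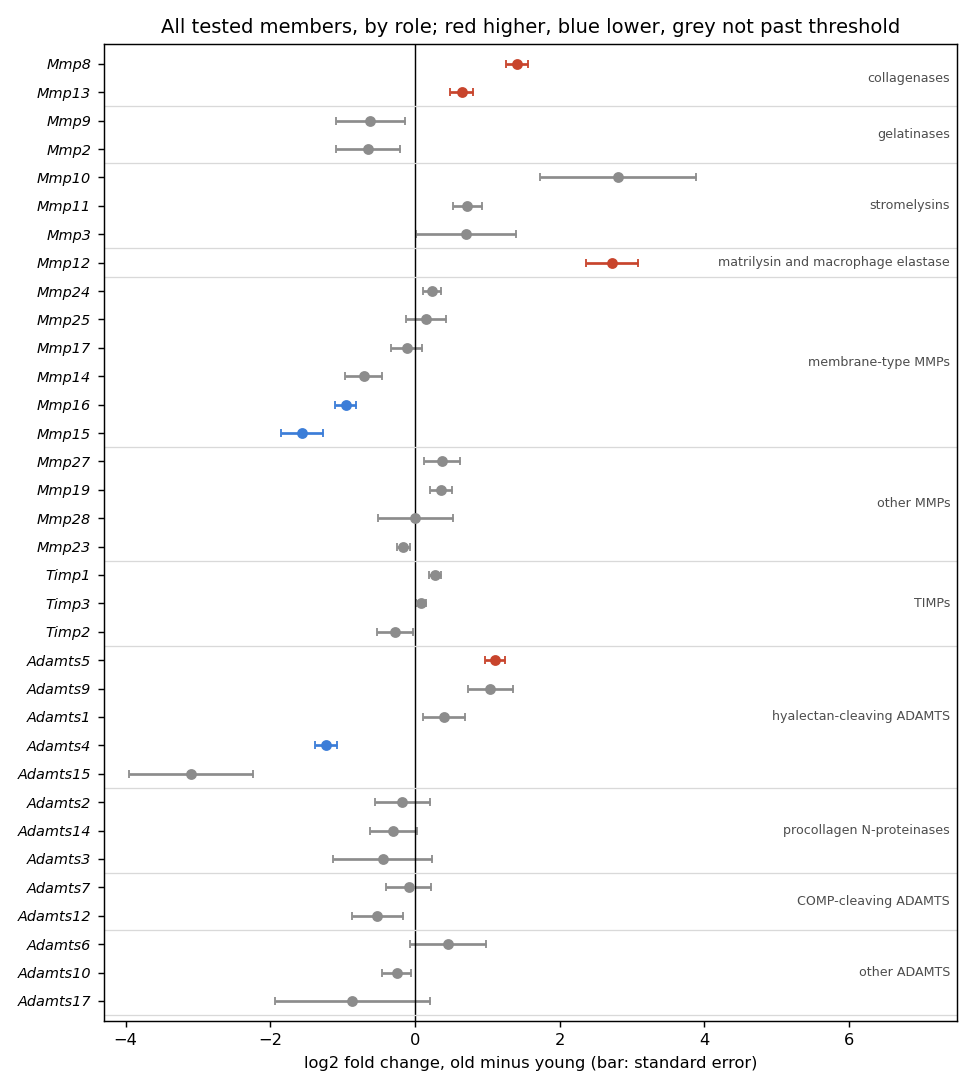
Log2 fold change (old minus young, x axis) of the 34 tested members with its standard error, grouped by role on the y axis. Red points rose and blue points fell past the adjusted p of 0.05, and grey points did not pass. The 2 tested collagenases and Mmp12 lie to the right of 0, Mmp15 and Mmp16 to the left, and Adamts5 and Adamts4 on opposite sides.

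Macrophage elastase, encoded by Mmp12, had the largest difference among the members that passed. This secreted enzyme cuts elastin and is best known from tissue macrophages. Mmp12 was at 126, 235 and 99.3 CPM in young libraries and at 856, 834 and 1365 CPM in old ones. The lowest old library was above the highest young one by a wide margin, and young replicate 2 was the highest of its age. The log2 fold change reached 2.73 (SE 0.36, adjusted p = 0.0046), a 6.64-fold rise. On leaving out any single library it lay between 2.46 and 3.18 and stayed past the threshold. In the same libraries 9 of the 12 macrophage markers fell and 1, Vsig4, rose, with a median log2 fold change of -0.94 over the list. Mmp12 therefore moved against the summed level of these markers. Osteoclast markers summed to between 283 and 366 CPM in young libraries and between 570.1 and 624 CPM in old ones, with 2 of 8 tested higher and 0 lower (3 higher and 1 lower with DESeq2). Calcr, the calcitonin receptor, had 2, 0 and 9 counts in young libraries and 0 in each old one, and was not tested. The part of osteoclasts in the rise of Mmp12 was not tested.

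Mmp8 and Mmp13 encode collagenases, which make the initial cut in fibrillar collagen. Mmp8, whose product is stored in neutrophil granules, was at 15.9, 20.3 and 14.4 CPM in young libraries and at 43.9, 40.3 and 50.4 CPM in old ones. All old values were above all young ones, with little spread within either age. A log2 fold change of 1.41 (SE 0.16, adjusted p = 0.00251) ranged between 1.31 and 1.57 without any single library, always past the threshold. Of 9 neutrophil markers 0 passed in either direction with edgeR (3 at an unadjusted p under 0.05, and 2 lower with DESeq2). Their median log2 fold change was -0.63, and they summed to between 1331 and 2312 CPM in young libraries and between 899 and 1693 CPM in old ones. The part of neutrophils in the Mmp8 values was not tested. Mmp13, the collagenase of bone-forming cells and hypertrophic cartilage, was at 531, 642 and 553 CPM in young libraries and at 828, 752 and 1122 CPM in old ones. The groups did not overlap, but the gap between the highest young and the lowest old library was small next to the spread among the old ones. Its log2 fold change reached 0.65 (SE 0.16, adjusted p = 0.0464), and it missed the threshold on leaving out any single library (adjusted p from 0.0571 to 0.142). Of 10 tested osteoblast and osteocyte markers 5 fell and 1, Spp1, rose, with a median log2 fold change of -1.05. Their sum, most of it Spp1, lay between 6399.6 and 8018 CPM in young libraries and between 7149 and 8767 CPM in old ones, and the part of bone-forming cells in the Mmp13 values was not tested.

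**Figure D2:**
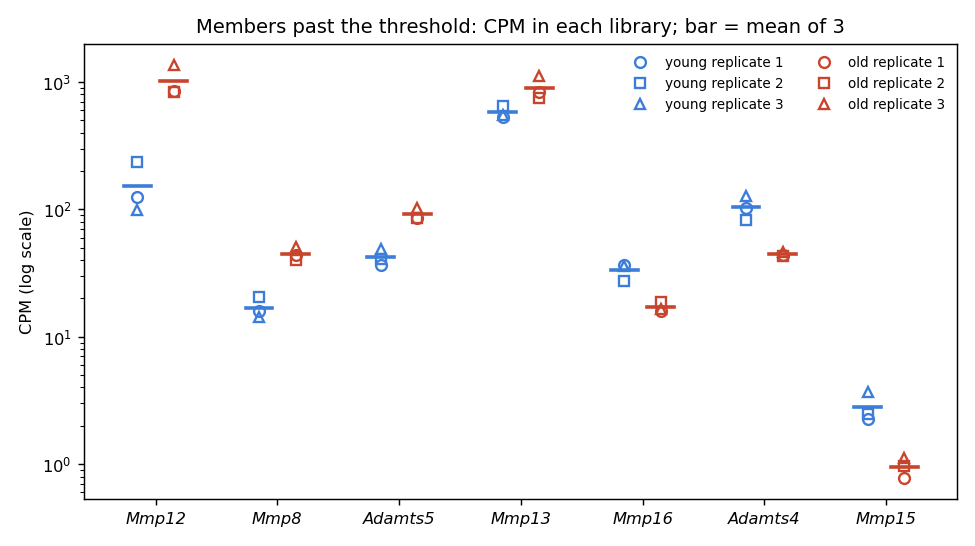
CPM on a log axis for the 7 members past the threshold, ordered from the largest rise to the largest fall. Each symbol is 1 library, blue for young and red for old, and bars are means of 3. In each of the 7 genes the young and old symbols do not overlap, with the smallest separation in Mmp13.

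The 3 metalloproteinases that rose are neighbours. Mmp12 (ENSMUSG00000049723) lies on chromosome 9 at 7344381 to 7369499, Mmp8 (ENSMUSG00000005800) at 7558456 to 7568485 and Mmp13 (ENSMUSG00000050578) at 7272514 to 7283331 of the mm10 build, each protein-coding and on the plus strand. They belong to a run of 10 Mmp genes within 427 kb, in the order Mmp13, Mmp12, Mmp1b, Mmp3, Mmp1a, Mmp10, Mmp8, Mmp27, Mmp20 and Mmp7. Of these 6 were tested, 3 rose and 0 fell with edgeR or DESeq2, where 5.84% of all tested genes rose with edgeR. Among the 3, Mmp13 missed the threshold on leaving out any single library. The other tested genes of the run, Mmp3, Mmp10 and Mmp27, had log2 fold changes of 0.70, 2.81 and 0.37 and did not pass (adjusted p of 0.617, 0.169 and 0.427). The value of Mmp3 turned to -0.59 without old replicate 3. That of Mmp10, which rests on few counts, was 6.99 without young replicate 2, the only young library with a count. Mmp1a, Mmp1b and Mmp7 had 0 counts in each library, and Mmp20 had 4 counts in young replicate 3 alone.

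**Figure D3:**
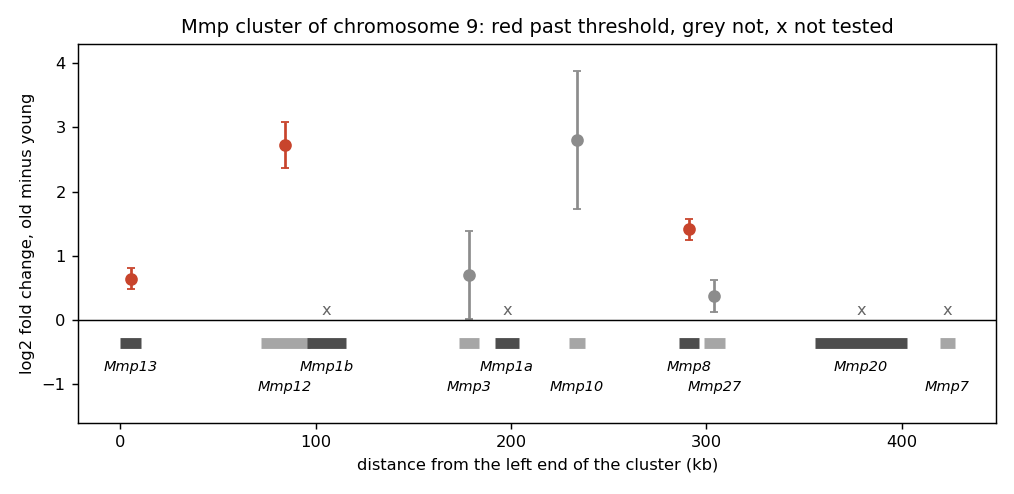
Log2 fold change (old minus young) with its standard error for the Mmp genes of chromosome 9, against distance in kb from the left end of the run. Grey bars below 0 mark the extent of each gene, red points passed the threshold, grey points did not, and a cross marks a gene that was not tested. All 6 tested genes lie above 0 with all libraries, Mmp3 turning to -0.59 without old replicate 3, and 3 passed.

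The DNA before the starts of these neighbours is shown because 3 of them passed in 1 direction. AP-1, the Fos and Jun dimer known to act at many metalloproteinase promoters, recognises TGANTCA. The last 100 bases before the annotated start are given 5′ to 3′ on the gene's own strand, from RefSeq on GRCm38.p6, which is mm10, with each match in capitals. Mmp12 has 2 annotated starts, and both are shown. Mmp3 and Mmp10 are shown as neighbours that carry the same match and did not pass the test.
Mmp13, chr9:7272414-7272513, plus strand: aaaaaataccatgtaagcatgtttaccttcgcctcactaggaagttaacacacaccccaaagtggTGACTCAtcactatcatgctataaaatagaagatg
Mmp12, start at 7347374, chr9:7347274-7347373, plus strand: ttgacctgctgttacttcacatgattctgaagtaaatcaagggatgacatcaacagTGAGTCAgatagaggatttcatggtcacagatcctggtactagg
Mmp12, start at 7344397, chr9:7344297-7344396, plus strand: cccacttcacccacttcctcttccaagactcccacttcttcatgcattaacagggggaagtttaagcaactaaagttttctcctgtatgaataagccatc
Mmp8, chr9:7558329-7558428, plus strand: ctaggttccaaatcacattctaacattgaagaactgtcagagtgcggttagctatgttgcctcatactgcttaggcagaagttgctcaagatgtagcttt
Mmp3, chr9:7445722-7445821, plus strand: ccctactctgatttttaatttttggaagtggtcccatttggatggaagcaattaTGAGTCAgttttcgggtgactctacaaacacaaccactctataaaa
Mmp10, chr9:7502242-7502341, plus strand: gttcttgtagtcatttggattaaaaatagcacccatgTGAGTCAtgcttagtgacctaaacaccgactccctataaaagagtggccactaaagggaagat

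In the 250 bases before the start, searched on both strands, TGANTCA was found in 8 of the 10 genes of the run, all but Mmp8 and Mmp27. It was in 0 of the other 22 members with a promoter in the table, and in 7.82% of all 27025 genes there. The match began 35 bases before the start in Mmp13 and 44 before the downstream start of Mmp12. It also stood in Mmp1a, Mmp1b, Mmp7 and Mmp20, whose counts were at or near 0. Mmp8, which passed the test, holds no match in this window. TATAAA was found in 7 of the 10 genes of the run and 14.3% of all genes. TGTGGT, the core letters of the RUNX motif, was found in 4 of the 10, Mmp13 among them at 118 bases before the start, and in 15.9% of all genes. In Mmp13 the AP-1, RUNX and TATAAA matches, the last at 16 bases before the start, did not overlap. Promoters of Adamts4, Adamts5 and Mmp16 were not among those used here.

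Membrane-type metalloproteinases stay anchored at the cell surface, and 2 of the 6 fell with edgeR, where 4.7% of all tested genes fell. DESeq2 called 3 lower, Mmp14 being added, where 13.3% of all genes were called in either direction. With all libraries 0 rose by either test. Mmp16 (chromosome 4 at 17852893 to 18119145), a transmembrane enzyme that can activate the gelatinase precursor proMMP-2, was at 36.4, 27.2 and 36.0 CPM in young libraries and at 16.0, 18.7 and 16.7 CPM in old ones. All old libraries were below all young ones and close to one another. The log2 fold change reached -0.95 (SE 0.14, adjusted p = 0.00778) and lay between -1.08 and -0.88 without any single library, with the call kept. Mmp15 (chromosome 8 at 95352268 to 95375080), a close relative, was low throughout, with 79, 88 and 123 counts in young and 34, 37 and 40 counts in old libraries. Its groups did not overlap. The log2 fold change reached -1.56 (SE 0.29, adjusted p = 0.0166), and it missed the threshold when old replicate 1 (adjusted p = 0.0752) or old replicate 2 (adjusted p = 0.0707) was left out.

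Mmp14, the main activator of proMMP-2 and the most abundant membrane-type member, did not pass. It was at 528, 487 and 970.1 CPM in young libraries and at 378, 383 and 453 CPM in old ones, so the groups did not overlap but young replicate 3 lay far above the rest. The log2 fold change reached -0.71 (SE 0.26, adjusted p = 0.146), and -0.33 without that library (adjusted p = 0.0588). DESeq2 did call it lower (adjusted p = 0.0296). Mmp17, Mmp24 and Mmp25 had log2 fold changes of -0.11, 0.24 and 0.15 with adjusted p between 0.302 and 0.821. Mmp17 turned to 0.19 without young replicate 3, and Mmp25 to -0.07 without old replicate 3. Of these Mmp24 shares 13.6% of its exon length with the gene BC029722, and without young replicate 3 it was called higher (log2 fold change 0.36, adjusted p = 0.0418).

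The gelatinases cut denatured collagen and basement membrane collagen, and neither of the 2 passed with edgeR or DESeq2, nor at an unadjusted p under 0.05 (0 of 2). A single library weighed on each. Mmp2, which connective tissue cells make, was at 222, 217 and 668 CPM in young libraries and at 212, 197 and 294 CPM in old ones. Apart from young replicate 3 the libraries of both ages lay between 197 and 294 CPM. The log2 fold change reached -0.65 (SE 0.44, adjusted p = 0.446) and turned to 0.10 without young replicate 3 (adjusted p = 0.77). Mmp9, made by osteoclasts and neutrophils, was at 52.2, 48.2 and 48.9 CPM in young libraries and at 16.2, 19.1 and 62.2 CPM in old ones. Old replicate 3 was the highest of all 6 libraries and the other old libraries were the lowest. With all libraries the log2 fold change reached -0.62 (SE 0.48, adjusted p = 0.512). Without old replicate 3 it was -1.50 and past the threshold (adjusted p = 0.0045). Neutrophil markers summed to 1693 CPM in old replicate 3 against 962.5 and 899 CPM in old replicates 1 and 2. Osteoclast markers summed to 624 against 570.1 and 597 CPM. In young libraries, where Mmp9 was nearly level, neutrophil markers summed to 1730, 2312 and 1331 CPM. Osteoclast markers summed to 323, 283 and 366 CPM there. The part of either in the Mmp9 value was not tested.

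None of the 3 stromelysins passed with edgeR, 2 had an unadjusted p under 0.05, and DESeq2 called 1. Mmp11, whose precursor is activated inside the cell, was the most abundant of them, at 24.0 ± 6.69 CPM in young libraries and at 39.7 ± 3.12 CPM in old ones. Its groups did not overlap (log2 fold change 0.73, SE 0.20, adjusted p = 0.0703), and it was called higher with DESeq2 (adjusted p = 0.0083) and without young replicate 3 (adjusted p = 0.0218). Mmp3, which cuts proteoglycans and activates other metalloproteinases, had 81, 63 and 42 counts in young and 51, 46 and 230 counts in old libraries, so its positive log2 fold change came with a single high library, old replicate 3. Mmp10, a close relative of Mmp3, had 0, 6 and 0 counts in young and 14, 11 and 24 counts in old libraries. How reads that fit both genes were counted is not given in the sources used here. Among the other metalloproteinases Mmp19 was at 39.6 ± 2.71 CPM in young libraries and at 50.8 ± 10.4 CPM in old ones (adjusted p = 0.202), with ranges that did not overlap, and shares 28.3% of its exon length with Tmem198b. Mmp23 was among the 10 most abundant members, at 210.2 ± 18.9 and 188 ± 7.65 CPM, and did not pass (adjusted p = 0.341). Mmp27 and Mmp28 were low, at no more than 5.03 CPM on average in either age.

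The inhibitors were abundant and none of the 3 tested Timp genes passed with edgeR, 1 of them having an unadjusted p under 0.05. Timp1, which is induced in inflammation and in growing connective tissue, was at 540, 529 and 499 CPM in young libraries and at 592, 679 and 622 CPM in old ones. The ages did not overlap and the difference was small (log2 fold change 0.27, SE 0.08, adjusted p = 0.0863). It passed with DESeq2 (adjusted p = 0.0446). Timp2, which also takes part in the activation of proMMP-2 by Mmp14, was at 1069.6, 1033 and 1979.7 CPM in young libraries and at 1107, 1009 and 1264 CPM in old ones. Young replicate 3 was again far above the others, and the log2 fold change of -0.27 (SE 0.25, adjusted p = 0.594) turned to 0.10 without it. Timp3, which binds to matrix and blocks ADAMTS enzymes too, was nearly level at 490.0 ± 17.7 and 521 ± 20.5 CPM (log2 fold change 0.09, SE 0.07, adjusted p = 0.542). It shares 21.3% of its exon length with Syn3. Timp4 had at most 15 counts in a library and was not tested.

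Levels between genes were compared per kb of exon. Timp1 stood highest in both ages, at 588 ± 23.7 CPM per kb in young and 711 ± 49.98 in old libraries. In young libraries Timp2 (349 ± 138) and Mmp13 (215 ± 21.9) followed, then Mmp14 (111 ± 44.9) and Mmp2 (109 ± 76.9), which did not differ beyond their spread. In old libraries Mmp13 (337 ± 73.0) and Timp2 (289 ± 33.0) came next and did not differ beyond their spread, followed by Mmp12 (141 ± 41.5). The per-kb level of Mmp12 in young libraries was 21.2 ± 9.94. Long annotated exons lower such a value, and the exon length of Mmp12 in the annotation, 7237 bases, was long next to the 2673 of Mmp13.

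**Figure D4:**
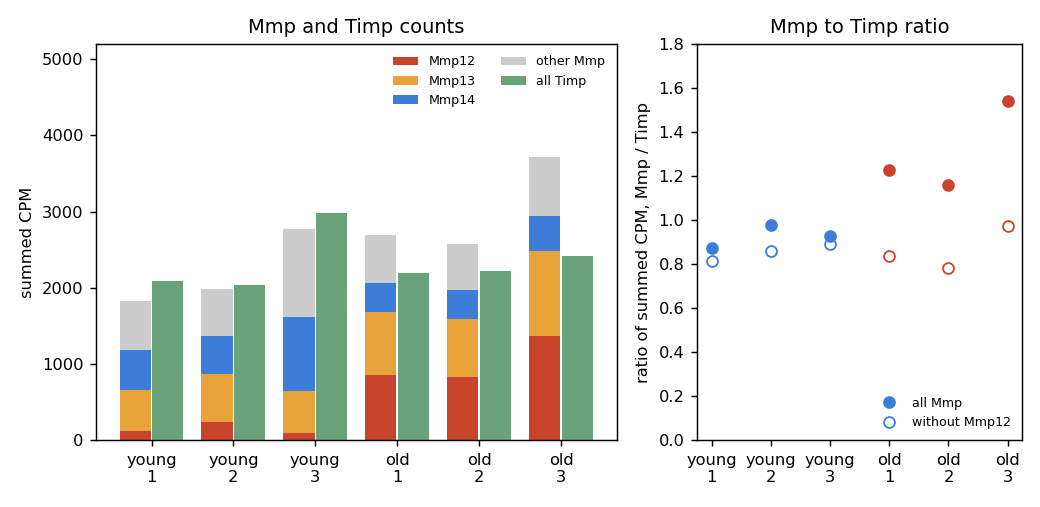
Left, summed CPM of all Mmp genes (stacked, with Mmp12, Mmp13 and Mmp14 shown apart) beside summed CPM of all Timp genes in each library. Right, the ratio of these sums with (filled) and without (open) Mmp12. The filled points are under 1 in the 3 young and above 1 in the 3 old libraries, and the open points overlap.

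Summed over all Mmp genes, counts were 1830.2, 1989 and 2768 CPM in young libraries and 2695, 2578 and 3720.2 CPM in old ones, while the Timp sums were 2097, 2036 and 2988 CPM and 2196, 2222 and 2417 CPM. The ratio of Mmp to Timp counts was 0.873, 0.977 and 0.926 in young and 1.23, 1.16 and 1.54 in old libraries, with no overlap. Mmp12 alone made up 3.59% to 11.8% of Mmp counts in young and 31.7% to 36.7% in old libraries. With Mmp12 left out the ratio was 0.856 ± 0.0404 in young and 0.866 ± 0.0978 in old libraries, and the ages overlapped. The share of Mmp14 in Mmp counts was 24.5% to 35.1% in young and 12.2% to 14.8% in old libraries. These are shares of reads, in which long transcripts weigh more, and not ratios of molecules or of enzyme activity. No test was made on these sums.

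Among the ADAMTS proteases that cut aggrecan and related proteoglycans, Adamts4 and Adamts5 went opposite ways. They encode the main aggrecanases of cartilage. Adamts4 (chromosome 1 at 171250421 to 171260637) was at 102, 83.1 and 127 CPM in young libraries and at 43.7, 43.1 and 46.0 CPM in old ones. The old libraries were all below the young ones and nearly equal. The log2 fold change reached -1.23 (SE 0.15, adjusted p = 0.00349). Adamts5 (chromosome 16 at 85856173 to 85901828) was at 36.3, 41.1 and 49.2 CPM in young libraries and at 85.8, 85.7 and 102 CPM in old ones. Its log2 fold change reached 1.11 (SE 0.14, adjusted p = 0.00337). Both calls held without any single library. The ratio of Adamts4 to Adamts5 counts within a library was 2.80, 2.02 and 2.57 in young and 0.51, 0.503 and 0.453 in old libraries. This ratio is one of reads, and the annotated exons of Adamts5 (10791 bases) are longer than those of Adamts4 (4810 bases). Scaled per kb of exon, young libraries held Adamts4 at 21.6 ± 4.54 and Adamts5 at 3.91 ± 0.607. For old libraries the scaled levels were 9.21 ± 0.321 for Adamts4 and 8.44 ± 0.853 for Adamts5. The old levels of the genes did not differ beyond their spread. Chondrocyte markers were mixed beside them: of 5 tested 1 fell, 0 rose with edgeR or DESeq2, and the median log2 fold change was 0.56. They summed to between 557 and 1776 CPM in young libraries and between 1331 and 1862 CPM in old ones. Most of this was Col2a1, the cartilage collagen, at 459, 501 and 1676 CPM in young libraries and 1269.9, 1422 and 1793 CPM in old ones. It did not pass with all libraries (log2 fold change 0.77, adjusted p = 0.412) and did without young replicate 3 (1.64, adjusted p = 0.00167). Acan, which encodes aggrecan, had a mean under 1 CPM in both ages. The part of cartilage cells in the Adamts5 and Mmp13 values was not tested.

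Adamts1, near Adamts5 on chromosome 16 and a protease of versican and aggrecan, was the most abundant member of its family, at 254, 257 and 539.6 CPM in young libraries and at 428, 434 and 527 CPM in old ones. The ages overlapped only through young replicate 3. With that library the log2 fold change was 0.40 (SE 0.29, adjusted p = 0.482), and without it 0.86 (adjusted p = 0.00252). Adamts9, a versican protease of which 12.0% of the exon length is shared with A730049H05Rik, was at 2.17 ± 0.843 CPM in young libraries and at 4.47 ± 0.690 CPM in old ones and did not pass (log2 fold change 1.04, SE 0.31, adjusted p = 0.0807). It passed with DESeq2 (adjusted p = 0.0268) and without young replicate 3 (adjusted p = 0.0176). Adamts15 was low, with 103, 46 and 89 counts in young and 21, 0 and 11 counts in old libraries. Its ages did not overlap, yet the spread was wide (log2 fold change -3.10, SE 0.86, adjusted p = 0.0656), and DESeq2 called it lower (adjusted p = 0.00222).

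None of the 3 procollagen N-proteinases, which remove the amino-terminal propeptide of fibrillar procollagens, passed with all libraries by edgeR or DESeq2, and 0 had an unadjusted p under 0.05. Adamts2 was at 146, 148 and 394 CPM in young libraries and at 190.1, 186 and 233 CPM in old ones. Its log2 fold change was -0.17 (SE 0.38, adjusted p = 0.846), and 0.47 and past the threshold without young replicate 3 (adjusted p = 0.0284). Adamts14 and Adamts3 had log2 fold changes of -0.30 and -0.44 (adjusted p of 0.654 and 0.768), which turned to 0.15 without young replicate 3 and to 0.01 without young replicate 2. Adamts7 and Adamts12, which cut cartilage oligomeric matrix protein, had log2 fold changes of -0.08 and -0.52 (adjusted p of 0.914 and 0.45), and both turned positive without young replicate 3, to 0.28 and 0.05. Adamts10, which binds fibrillin, and the low-level members Adamts6 and Adamts17 did not pass either, with adjusted p between 0.533 and 0.706.

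Members differed between libraries of one age as well as between ages. In young replicate 3, 12 of the 34 tested members were at 1.5 times the mean of the other young libraries or more, where 10.6% of all tested genes were. They were led by Mmp2 (3.05 times) and Adamts2 (2.69 times), and Adamts12, Adamts1, Adamts14, Mmp14 and Timp2 were between 1.88 and 2.46 times. Col1a1 and Col1a2 were at 2.04 and 2.183 times. Stromal and fibroblast markers summed to 68917 CPM there, against 34439 and 30960.3 CPM in young replicates 1 and 2. Most of each sum came from Col1a1, Col1a2 and Col3a1, so it largely repeats the collagen values. Other markers of the list were mixed. Postn was at 176, 142 and 437 CPM in young replicates 1, 2 and 3, and Pdgfrb, Lum and Dcn were also highest in replicate 3, by less. Pdgfra was at 55.5, 64.2 and 65.7 CPM and Cxcl12 at 464, 641 and 661 CPM, with replicates 2 and 3 close together. Mmp12 and Mmp8 were lower in young replicate 3 than in the others of its age, at 0.55 and 0.79 times. Mmp13, Timp1 and Timp3 were near 1. The part of stromal cells in these values was not tested. In old replicate 3, 6 members reached 1.5 times, among them Mmp3 (5.42 times), Mmp9 (3.52 times) and Mmp12 (1.62 times), where 6.03% of all tested genes did.

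**Figure D5:**
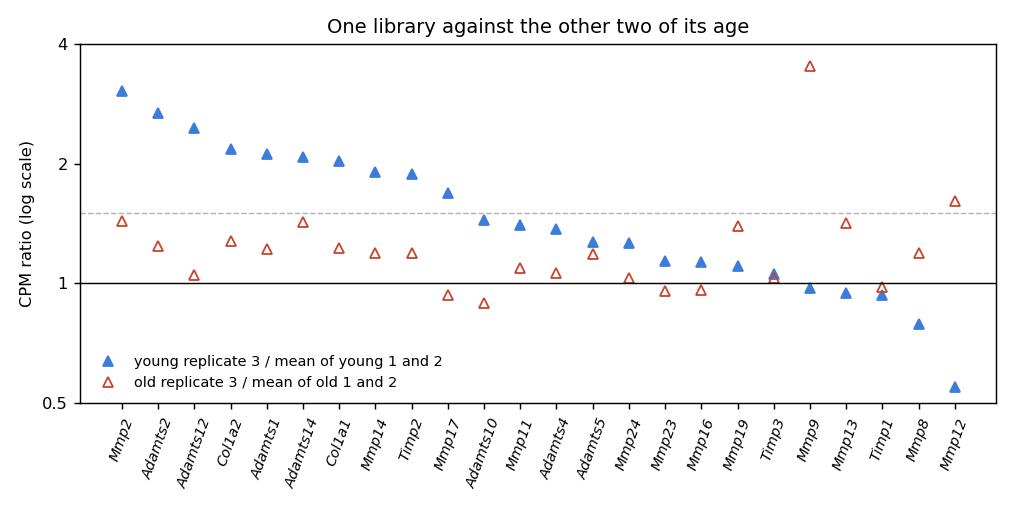
CPM of replicate 3 divided by the mean CPM of replicates 1 and 2 of the same age, on a log axis, for tested members with a mean of at least 10 CPM and for Col1a1 and Col1a2. Filled blue triangles are young and open red triangles old libraries, and the dashed line marks 1.5. Mmp2, Adamts2 and Adamts12 lie above the collagen genes in young replicate 3, and Mmp9 stands highest in old replicate 3.

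Regulators and partners of these proteases were followed in a list of 35 activators, inhibitors, receptors, ADAMTS-like proteins and ADAM proteases. With edgeR 2 of 29 tested genes rose and 2 fell, close to the 5.84% higher and 4.7% lower over all tested genes. The reading depends on the test: DESeq2 called 3 of the 29 higher and 7 lower, where 13.3% of all genes were called. With edgeR 13 of the 29 had an unadjusted p under 0.05. Serpine2, which encodes protease nexin, an inhibitor of thrombin and plasminogen activators, was at 379 ± 126 CPM in the young and 154 ± 30.3 CPM in the old (log2 fold change -1.30, SE 0.24, adjusted p = 0.0173), and leaving out old replicate 1 or 2 removed its call (adjusted p up to 0.0804). Adam17, the sheddase of tumour necrosis factor, had a log2 fold change of -0.34 (adjusted p = 0.0379). Adam9, another cell-surface sheddase, had 0.50 (adjusted p = 0.0392), and Adamtsl5, a fibrillin-binding protein without protease domain, 0.59 (adjusted p = 0.0243). Each of the last 3 calls survived the removal of young replicate 3 and of no other library. Adamtsl3, Pcsk6 and Plat did not pass with edgeR (log2 fold changes of -0.98, -1.43 and -0.50, with adjusted p from 0.0682 to 0.0973). DESeq2 called each of them lower. The plasminogen gene Plg, A2m, Spock1, Spock3, Papln and Adamtsl2 had 0 counts in every library.

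The 12 members that were not tested had at most 76 counts in a library. Mmp1a (a polymorphic pseudogene in the annotation), Mmp1b, Mmp7, Mmp21, Adamts8, Adamts13 and Adamts19 had 0 counts throughout. Adamts18 had 76, 0 and 60 counts in young libraries and 0 in each old one, and without young replicate 2 it entered the test and was called lower (adjusted p = 0.0102). Adamts16 had 8, 29 and 38 counts in young and 0, 0 and 4 counts in old libraries, and was called lower with DESeq2 (adjusted p = 0.00894). Adamts20 had 0, 5 and 4 counts in young and 0 in each old library. Markers of other cells the culture could hold moved too: 4 of 6 megakaryocyte, 3 of 4 B cell and 4 of 5 mast cell and basophil markers tested rose, where 5.84% of all tested genes did. The calls of Pf4, Cd79a, Ms4a1, Fcer1a and Cpa3 held on leaving out any single library, and the other calls did not. Of 6 endothelial markers 0 passed with edgeR (3 at an unadjusted p under 0.05, 1 lower with DESeq2). The megakaryocyte markers summed to between 47.2 and 80.8 CPM in young libraries and between 228 and 312 CPM in old ones, most of it Pf4. The B cell markers summed to at most 27.6 CPM and the mast cell and basophil markers to at most 84.4 CPM. The part of these cells in the members' values was not tested. The counts of untested members are too low to tell absence from a low level.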

How the data were processed

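The table the authors deposited gives, for 6 libraries, unnormalized whole counts by Ensembl gene. Per the labels' protocols, total RNA was amplified with SMART-Seq v4, which does not mark the strand, and sequenced in pairs of 100 bp. The submitters' processing notes name build mm10 and, with no order or role, STAR 2.6.1a and HISAT2 2.1.0 (aligners), StringTie 1.3.4d, cutadapt 1.18 and Trim Galore 0.50 (trimming), SAMtools 1.9 and Picard 2.18.15. Which tool counted, and how it treated shared reads, is not given in the sources used. In each library a count of 3 was rarer than 2 or 4, and 5 rarer than 4 or 6, so the lowest counts are not plain tallies of single reads. With no molecular identifiers, reads copied by amplification cannot be told from separate molecules.

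Libraries were grouped by the labels. Symbols matched 37607 identifiers; positions and exon overlaps came from GENCODE M21. The fit used edgeR 4.0.16 under R 4.3.3 (filterByExpr, TMM, robust quasi-likelihood test). Each SE was obtained from the log2 fold change and its F statistic, as size over root F. Alternatives used DESeq2 1.42.0, limma 3.58.1 (voom), other scalings and filters, a replicate block, and leaving out each library. In simulated counts for 15567 genes, 28% of genes changed 1.5-fold, 76% changed 2-fold and 96% changed 4-fold were recovered. The changed genes, 50 for each fold, were drawn only from genes above a minimum mean CPM. These shares therefore do not cover members of low level such as Mmp15, Adamts9 and Mmp10.

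The members, gene lists and tests were chosen with earlier results of these data known. Named were members past the threshold, the 8 most abundant tested members, the Timp genes and up to 8 regulators with the smallest p; other members are named from the list and described after their values were seen. A regulator that this rule names is not reported here. Promoters came from RefSeq on GRCm38.p6, for 32 of 46 members. A planned search of protein sequences was not made.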

Additional observations from a re-analysis of the deposited data

How the results depend on the processing

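The same 4 higher and 3 lower members were called under 3 other scalings (size factors of DESeq2, upper quartile, TMM leaving out the 50 most abundant genes), with limma-voom, without robust dispersion, and with the low-count filter dropped or raised to 50 counts in 3 libraries. With the DESeq2 test, 7 members were higher and 6 lower, and 7 of the listed regulators were lower. Leaving out 1 library gave 3 to 8 higher and 2 to 4 lower members, a median member log2 fold change from -0.16 to 0.17, 418 to 1459 higher and 294 to 1168 lower genes among all tested, and 0 to 6 higher and 0 to 4 lower regulators. The highest of these counts came without young replicate 3, except for the 4 lower members, which came without young replicate 2 or old replicate 3. Mmp12, Mmp8, Adamts5, Adamts4 and Mmp16 were called in each of the 15 alternatives. Mmp13 was not called in 7 of them and Mmp15 in 2. On leaving out 1 library the log2 fold change ranged from -0.92 to 0.10 for Mmp2 and from -0.44 to 0.10 for Timp2, turning positive in both without young replicate 3, and the cause was not tested. Without that library Adamts2, Adamts7, Adamts12, Adamts14 and Mmp17, none of them called with all libraries, also turned positive. Mmp3 and Mmp25 turned negative without old replicate 3, Adamts3 turned to 0.01 without young replicate 2, and Mmp28, at 0.01 with all libraries, turned negative in 4 of the 6 fits that left out 1 library. Adamts7 was at 0.01 and the median over members at 0.05 with limma-voom.

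The main fit did not pair libraries by replicate number, because the labels state no such pairing. Same-numbered libraries deviated together only weakly, with correlations of 0.0884, 0.0343 and 0.0825, although each library correlated best with its own number. These values do not settle if the numbers mark a pairing. With a replicate block 5 members were higher, 3 of them called without it, and 3 lower. Adamts9 and Mmp11 were gained and Mmp13 was not called (adjusted p = 0.0771). Depth limits what can be said of the 12 members that were not tested.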
